A study of Homo sapiens with 6 samples.

Results

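RNA polymerase II (Pol II) occupancy was examined at 10 genes of the anaphase-promoting complex (APC/C), its ubiquitin partners and its target securin in SK-Hep1 cells, an established human line from a liver adenocarcinoma. The genes were taken from a list, and their peaks were all those overlapping the gene or 5 kb on either side on the hg19 build. Of 20136 protein-coding genes these are CDC20, FZR1, UBE2C, UBE2S, FBXO5, PTTG1, CDC16, CDC23, CDC27 and ANAPC1. Cells received a control siRNA (siCtrl), an siRNA against malic enzyme 2 (siME2), a mitochondrial enzyme that makes pyruvate from malate, or the latter siRNA together with α-ketoglutarate (siME2+αKG). The windows of the 10 genes held 36 of 31710 peaks in the siCtrl list, 33 of 29201 in the siME2 list and 34 of 28968 in the siME2+αKG list. The list was chosen by the function of the genes with the Pol II peak heights of these 3 libraries already known, so those heights describe the genes, no test was made on them, and they support no claim.

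The series holds 3 Pol II ChIP libraries and 3 inputs, 1 of each per condition, all from the same line grown in DMEM with serum. The siRNA sequences, the dose of α-ketoglutarate and the treatment times are not given in the sources used here. There were no replicates, so no test between conditions was possible, and every interval below is a 95% interval that covers counting error only. The ChIP libraries held 13006504, 10445326 and 12955596 filtered tags for siCtrl, siME2 and siME2+αKG, so siME2 was the shallowest. Mesenchymal markers carried a promoter peak in 6 or 7 of 8 cases in each list. The 4 endothelial and the 5 leukocyte markers that could be looked up had none. Of 10 hepatocyte markers only ASGR1 had one, in siCtrl, and albumin, transthyretin and HNF4A had none in any list, so the line's liver origin is not visible in its hepatocyte genes. An siRNA acts on the transcript, so the polymerase at ME2 is no check of the knockdown.

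The APC/C is the ubiquitin ligase that drives cells from metaphase to anaphase and out of mitosis. CDC20 activates it in mitosis and FZR1 (also called CDH1) activates it from late mitosis through G1. UBE2C starts ubiquitin chains on its substrates, UBE2S extends them, and FBXO5 (EMI1) inhibits the complex before mitosis. Securin, the product of PTTG1, holds separase inactive until the APC/C marks it for destruction. Core subunits such as CDC16, CDC23, CDC27 and ANAPC1 form the scaffold and are made throughout the cycle, whereas CDC20, UBE2C and PTTG1 are known as genes whose transcription peaks in G2 and mitosis. Such promoters often carry CCAAT boxes and a cell cycle homology region with the core TTTGAA.

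The promoter sequences of 5 of the genes are shown, because they carry, in differing numbers, the motifs of G2 and mitotic promoters counted after them. Each runs 5′ to 3′ in the direction of the gene, from 270 bases before to 30 bases after the start of its canonical GENCODE transcript, read from the GRCh37 (hg19) genome. Capitals mark CCAAT and TTTGAA on either strand, so that ATTGG and TTCAAA are the same motifs read on the other strand. CDC16 is given as a core subunit.
CDC20 (chr1:43824382-43824681, plus strand): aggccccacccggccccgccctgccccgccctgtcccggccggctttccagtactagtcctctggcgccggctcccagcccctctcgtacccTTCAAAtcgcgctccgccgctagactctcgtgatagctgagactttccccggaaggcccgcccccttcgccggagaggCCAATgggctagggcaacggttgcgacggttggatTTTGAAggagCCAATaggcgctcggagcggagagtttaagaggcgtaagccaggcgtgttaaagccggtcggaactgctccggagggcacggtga
PTTG1 (chr5:159848592-159848891, plus strand): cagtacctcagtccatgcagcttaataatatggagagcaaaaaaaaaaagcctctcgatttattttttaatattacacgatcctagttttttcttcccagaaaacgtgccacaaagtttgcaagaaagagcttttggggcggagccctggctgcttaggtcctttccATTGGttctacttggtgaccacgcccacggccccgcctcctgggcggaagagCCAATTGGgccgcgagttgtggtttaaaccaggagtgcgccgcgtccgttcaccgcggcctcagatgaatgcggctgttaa
UBE2S (chr19:55919127-55919426, minus strand): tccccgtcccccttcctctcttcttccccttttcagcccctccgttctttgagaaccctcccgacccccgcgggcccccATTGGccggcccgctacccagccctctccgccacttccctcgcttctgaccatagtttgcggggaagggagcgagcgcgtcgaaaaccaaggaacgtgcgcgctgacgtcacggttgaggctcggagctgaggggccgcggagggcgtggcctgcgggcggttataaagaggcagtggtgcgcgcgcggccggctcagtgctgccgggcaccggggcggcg
FBXO5 (chr6:153304147-153304446, minus strand): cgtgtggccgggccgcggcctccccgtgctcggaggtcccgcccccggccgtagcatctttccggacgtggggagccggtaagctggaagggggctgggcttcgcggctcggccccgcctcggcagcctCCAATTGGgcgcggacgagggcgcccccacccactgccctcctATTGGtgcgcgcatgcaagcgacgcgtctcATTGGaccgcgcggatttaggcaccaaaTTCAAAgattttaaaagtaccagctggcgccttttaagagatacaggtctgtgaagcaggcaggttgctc
CDC16 (chr13:115000102-115000401, plus strand): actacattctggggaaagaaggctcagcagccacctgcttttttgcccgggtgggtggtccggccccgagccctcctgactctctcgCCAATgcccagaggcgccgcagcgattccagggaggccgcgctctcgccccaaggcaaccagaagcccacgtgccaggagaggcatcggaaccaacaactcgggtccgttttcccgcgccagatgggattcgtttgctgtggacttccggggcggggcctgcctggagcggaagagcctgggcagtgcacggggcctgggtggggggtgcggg

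CCAAT was found in 7 of the 9 promoter windows searched, those of all the genes but UBE2C, against 36.9% of 19855 protein-coding promoters of the same 300 bases, and FZR1 and ANAPC1 had none. FBXO5 held 4, PTTG1 and the core subunit CDC23 held 3 each, and UBE2S and CDC16 held 1 each. In PTTG1 and in FBXO5 a CCAAT and an ATTGG overlap within CCAATTGG. TTTGAA was found at CDC20, FZR1 and FBXO5, against 12.0% of all promoters. At CDC20 one copy lies at bases −65 to −60 from the start, between CCAAT boxes at −100 and −55, and at FBXO5 a copy on the other strand lies at −40 to −35. Neither of the E2F site spellings searched, TTTCGCGC (0.735% of promoters) and TTTGGCGC (0.851%), occurred in any of the 9. Among 14 core APC/C subunits, the 4 above and 10 others, CCAAT occurred in 5 and TTTGAA in 1. Among 24 genes for APC/C substrates they occurred in 19 and 14. These matches describe the letters only. The median GC content was 65.3% over the 9 windows and 63.0% over all promoters.

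Promoter height was taken at the highest summit within 1 kb of any annotated start site, as ChIP fragments over that summit per 1000000 filtered ChIP tags; levels between genes compare summits, not gene lengths. All 10 genes had such a summit in all 3 lists. In siCtrl the heights ran from 2.69 at CDC23 to 10.8 at UBE2S, around a median of 4.31 over all promoters with a summit, and 5 of the 10 genes stood above that median. UBE2S had an authors' fold enrichment of 70.4 over the local input background in siCtrl, which ranked 2 of the 31710 peaks. Its height exceeded that of 99.5% of siCtrl promoters, 96.0% of siME2 promoters and 97.5% of siME2+αKG promoters. Next in siCtrl came CDC20 (7.07) and CDC16 (6.69), both with intervals below that of UBE2S (9.13 to 12.8). PTTG1 (5.31) and FBXO5 (5.15) followed, then UBE2C and ANAPC1, equal at 4.0, and then CDC27 (3.38), FZR1 (3.0) and CDC23 (2.69). From CDC20 down, neighbours in this order had overlapping intervals. In siME2 UBE2S was still the highest at 7.95, but CDC16 (7.18) stood above CDC20 (5.27), with overlapping intervals, and PTTG1 and UBE2C were the lowest of the 10 at 2.68 each, with intervals (1.78 to 3.87) that overlap those of CDC23, FZR1 and CDC27.

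**Figure D1:**
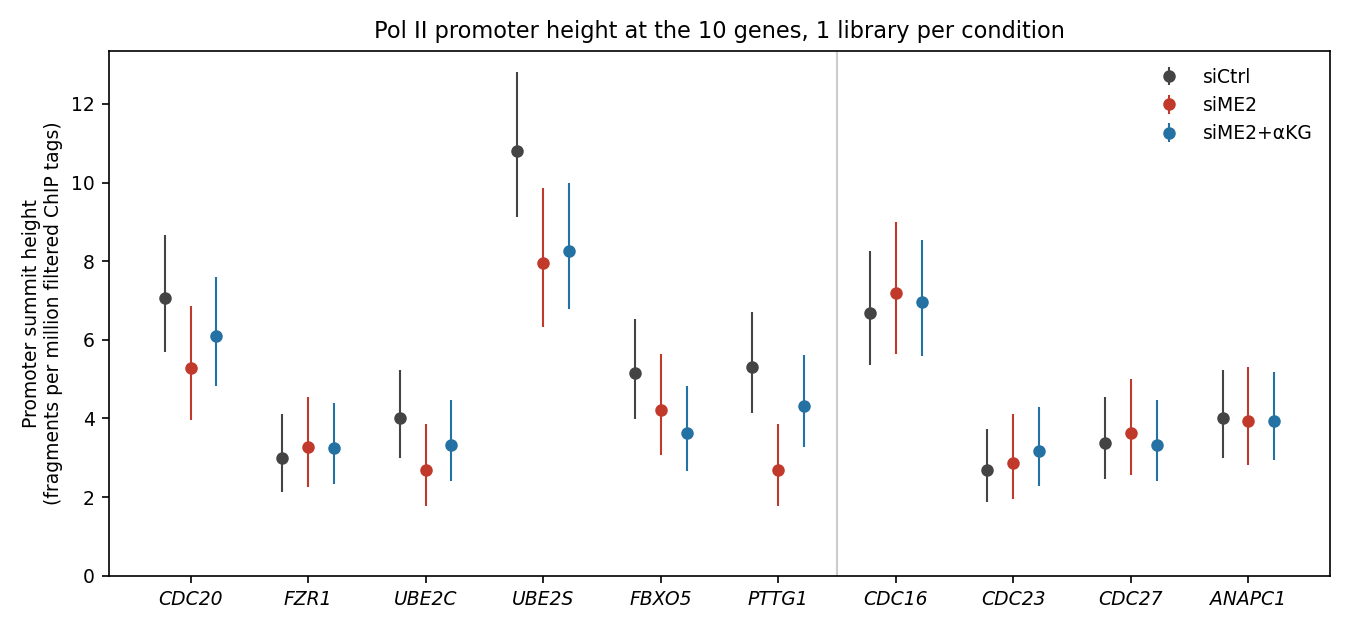
Promoter summit height (fragments per 1000000 filtered ChIP tags, vertical axis from 0) of the 10 genes in the siCtrl, siME2 and siME2+αKG libraries; points are single libraries and bars are 95% Poisson intervals for counting error. The siME2 point is the lowest of the 3 at CDC20, UBE2C, UBE2S, PTTG1 and, by a margin of 0.01, ANAPC1 (3.93 against 4.0 and 3.94), and PTTG1 is the only gene whose siCtrl and siME2 intervals do not overlap.

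Between siME2 and siCtrl, the comparison that asks what loss of malic enzyme 2 does to transcription, securin was the gene that differed most. PTTG1 (chromosome 5, 159848862 to 159855746, plus strand) had 69, 28 and 56 fragments in the siCtrl, siME2 and siME2+αKG libraries, the order kept below (heights 5.31, 2.68 and 4.32). The siME2 library was the low one, and its interval (1.78 to 3.87) did not overlap that of siCtrl (4.13 to 6.71). Its siME2 height was 0.505 of that in siCtrl (interval 0.314 to 0.794), a log2 ratio of −0.98 (−1.67 to −0.33), and only 0.325% of promoters had a lower ratio. In bulk chromatin, fewer cells in the cycle phase that uses a promoter and less polymerase per cell cannot be told apart. The peak itself was 567, 265 and 313 bp long. It lies over intron 1, with summits 115, 147 and 155 bp after the start. The start of SLU7, a splicing factor gene on the opposite strand, is 144 bp from that of PTTG1, so ChIP does not separate the pair by strand. A separate peak inside SLU7 holds another annotated SLU7 start, and its siCtrl summit lies at −2932 bp from the PTTG1 start. It had 35, 21 and 32 fragments and a siME2 to siCtrl log2 ratio of −0.42 (−1.27 to 0.40).

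The ubiquitin-conjugating enzymes followed. UBE2C (chromosome 20, 44441215 to 44445596, plus strand) had 52, 28 and 43 fragments (heights 4.0, 2.68 and 3.32). UBE2S (chromosome 19, 55911113 to 55919156, minus strand) had 141, 83 and 107 (10.8, 7.95 and 8.26). In both genes siME2 was the lowest library and siME2+αKG lay between it and siCtrl. At UBE2C the siME2 to siCtrl ratio was −0.58 (−1.29 to 0.11) in log2 terms, with an interval that includes 0. At UBE2S it was −0.45 (−0.86 to −0.05), which is 0.733 of the siCtrl height. Division by the fragment length of each library (211, 201 and 221 bp), since longer fragments raise a summit, brought UBE2S to −0.38 (−0.79 to 0.02). The 301 bases about the UBE2S summit have 1 other place in the genome with 97.5% identity over 197 bases, on chromosome 17. No list had a peak there, but tags that match both places leave the UBE2S value uncertain. The summits of the other 9 genes had no second place with at least 90% identity over at least 100 bases. A smaller peak with its siCtrl summit at −389 bp from the UBE2C start held 23, 11 and 21 fragments, again fewest in siME2, and its log2 ratio was −0.75 (−1.93 to 0.35).

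Of the activators, CDC20 was lower in siME2 and FZR1 was not. CDC20 (chromosome 1, 43824652 to 43828874, plus strand) had 92, 55 and 79 fragments (7.07, 5.27 and 6.10), a log2 ratio of −0.43 (−0.94 to 0.07) whose interval includes 0. FZR1 (chromosome 19, 3506309 to 3538332, plus strand) had 39, 34 and 42 fragments (3.0, 3.26 and 3.24), a log2 ratio of 0.12 (−0.59 to 0.82), and its 3 libraries could not be told apart at this depth. The CDC20 summit lies at −387 bp from the gene's start in siCtrl, by the divergent non-coding gene CDC20-DT, which starts 305 bp away on the other strand. The peak caller gave 1 summit per peak and the siCtrl peak was not divided, so no siCtrl height can be read at the CDC20 start itself. In siME2 a separate summit 159 bp inside CDC20 had 41 fragments. ELOVL1, a fatty acid elongase gene that starts 9093 bp from CDC20, served as a neighbour in the same window. The peak over its start had 99, 91 and 94 fragments and a log2 ratio of 0.19 (−0.23 to 0.62). The siCtrl and siME2 summits of that peak lie 425 bp apart, so the ratio compares different sites. Its sign was opposite to that of CDC20, but the intervals of the ELOVL1 and CDC20 ratios overlap.

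FBXO5, the inhibitor (chromosome 6, 153291654 to 153304714, minus strand), had 67, 44 and 47 fragments at its highest summit (5.15, 4.21 and 3.63). Here siME2+αKG was the lowest library. Against siCtrl the log2 ratio was −0.29 (−0.87 to 0.28) in siME2 and −0.51 (−1.08 to 0.05) in siME2+αKG. In siCtrl this summit lies at −394 bp from the canonical start, 104 bp from the start of a non-coding gene on the opposite strand (ENSG00000227627), and still inside the gene as annotated with its longest transcripts.

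The core subunits were nearly level. CDC16 (chromosome 13, 115000362 to 115038198, plus strand), a scaffold subunit with tetratricopeptide repeats, had 87, 75 and 90 fragments (6.69, 7.18 and 6.95) and a siME2 to siCtrl log2 ratio of 0.10 (−0.36 to 0.56). CDC27 (chromosome 17, 45195069 to 45266788, minus strand), the subunit that activators dock on, had 44, 38 and 43 (3.38, 3.64 and 3.32) and a log2 ratio of 0.10 (−0.56 to 0.76). In both, siME2 was the highest library, by less than counting error. CDC23 (chromosome 5, 137523339 to 137549032, minus strand), another repeat subunit, had 35, 30 and 41 (2.69, 2.87 and 3.16) and a log2 ratio of 0.09 (−0.66 to 0.84). ANAPC1 (chromosome 2, 112369216 to 112642267, minus strand), the largest scaffold protein, had 52, 41 and 51 (4.0, 3.93 and 3.94) and a log2 ratio of −0.03 (−0.65 to 0.59), which turned positive relative to all promoters. The UBE2S value of −0.45 lies inside the intervals of CDC23, CDC27 and ANAPC1, so equal height was not shown. Over the 6 activators, conjugating enzymes, inhibitor and securin the median was −0.44 with 5 of 6 lower. Over the 4 core subunits it was 0.10 with 3 of 4 higher. The difference between the groups was not tested, since the genes were chosen with results known.

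Read against all promoters, 1 of the 10 genes, PTTG1, was at least 1.5-fold lower in siME2 than in siCtrl, and 3.16% of 11991 promoters were. UBE2C lay just short of that limit at 0.670 of the siCtrl height. None of the 10 was 1.5-fold higher, against 1.49% of promoters. The interval lay below 0 at PTTG1 and UBE2S, against 1.56% of promoters, and above 0 at none, against 0.625%. After division by fragment length it did so at PTTG1 alone. The median over the 10 was −0.16 and over all promoters −0.04, with 6 of 10 genes and 56.5% of promoters lower.

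**Figure D2:**
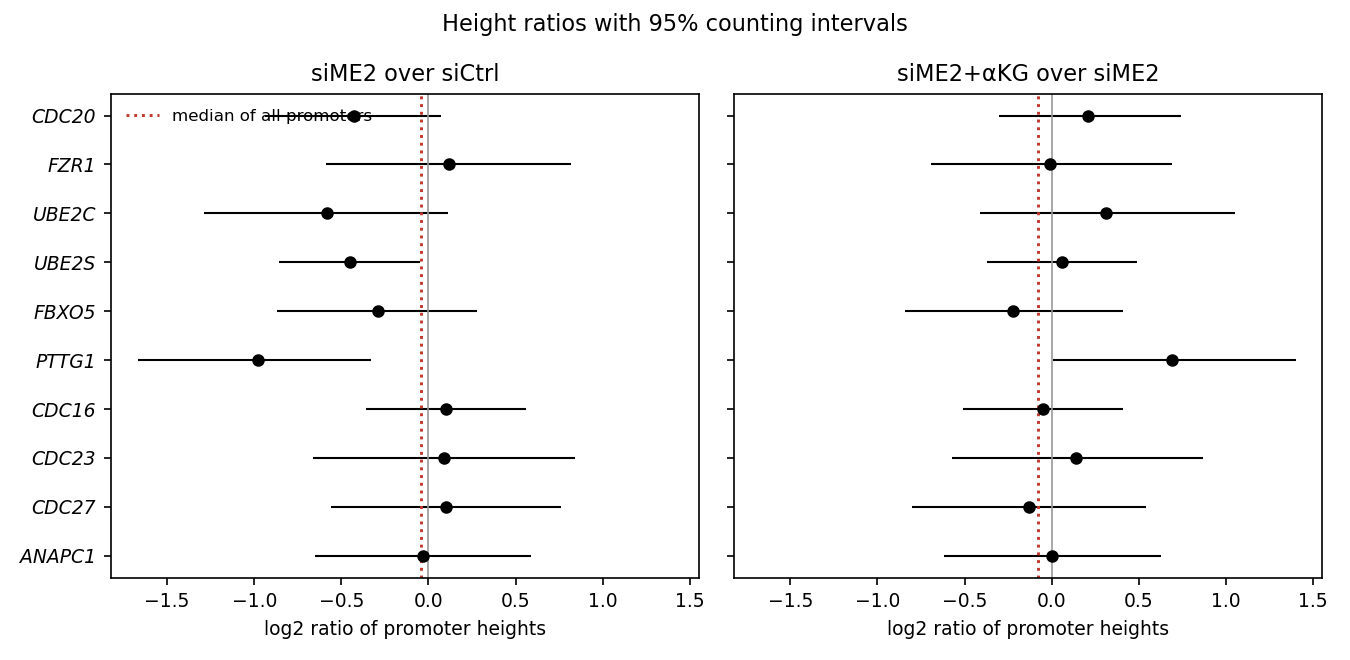
Log2 ratios of promoter height for siME2 over siCtrl (left) and siME2+αKG over siME2 (right); points are genes, bars are exact 95% counting intervals, the grey line is 0 and the red dotted line is the median of all promoters. PTTG1 is the farthest from 0 in both panels, at −0.98 and 0.69, and both panels share the siME2 library.

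Between siME2+αKG and siME2, which asks what the added metabolite does in knockdown cells, PTTG1 again had the largest difference of the 10. Its height was 1.61 times that in siME2 (1.01 to 2.64), a log2 ratio of 0.69 (0.01 to 1.4). Division by fragment length brought it to 0.55 (−0.13 to 1.26), short of 1.5-fold and with an interval that includes 0. UBE2C gave 0.31 (−0.41 to 1.05) and CDC20 0.21 (−0.30 to 0.74). UBE2S gave 0.06 (−0.37 to 0.49), a sign that turned after division by fragment length. FBXO5 gave −0.22 (−0.84 to 0.41). CDC16 gave −0.05, CDC27 −0.13 and CDC23 0.14, and FZR1 and ANAPC1 were within 0.01 of 0, with intervals that all include 0. The signs at CDC16, FZR1 and ANAPC1 depended on the scaling, and CDC23 came to 0.00 after division by fragment length. At least 1.5-fold higher were 1 of 10 genes and 1.4% of 11820 promoters, and lower were 0 of 10 and 4.43%. After division by fragment length 0 of 10 genes and 0.668% of promoters were 1.5-fold higher. The interval lay above 0 at PTTG1 only, against 0.499% of promoters, and below 0 at none, against 2.71%. The median was 0.03 over the 10 genes and −0.08 over all promoters. This comparison shares the siME2 library with the one before, so a value peculiar to that library enters both with opposite signs.

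Between siME2+αKG and siCtrl, UBE2S remained lower, at a log2 ratio of −0.39 (−0.77 to −0.02), or 0.762 of the siCtrl height. All promoters stood at a median of −0.13 in this comparison, and relative to it UBE2S was at −0.26, FBXO5 at −0.38, PTTG1 at −0.17, UBE2C at −0.14 and CDC20 at −0.09. Relative values were 0.24 for FZR1, 0.36 for CDC23, 0.18 for CDC16, 0.10 for CDC27 and 0.11 for ANAPC1. The last pair stood at −0.03 and −0.02 before the shift was taken out, and CDC16, at 0.05 before it, came to −0.01 when heights were divided by fragment length. None of the 10 genes was 1.5-fold lower, against 4.42% of 11896 promoters, or higher, against 0.731%. The interval lay below 0 at UBE2S only, against 3.09% of promoters, and above 0 at none, against 0.193%. After division by fragment length it lay below 0 at UBE2S, at −0.46 (−0.84 to −0.09), and at FBXO5, at −0.57 (−1.14 to −0.01). The same held at 665 of the 11896 promoters. This division also moved the median of all promoters to −0.20, with 19.8% of them higher in siME2+αKG. The upper ends at UBE2S and FBXO5, −0.09 and −0.01, both lie above that median.

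Peaks also differed in where they extended. Peaks of the 10 windows covered 47090, 31084 and 38548 bp in the siCtrl, siME2 and siME2+αKG lists. The siME2 coverage was 0.660 of that in siCtrl, compared with 0.812 over the whole lists, and the siME2 library had 0.803 of the siCtrl tags. Of the 36 siCtrl peaks, 55.6% overlapped a siME2 peak and 69.4% a siME2+αKG peak, against 68.9% and 70.9% of the whole siCtrl list. Of the 33 siME2 peaks 93.9% overlapped a siCtrl peak, and of the 34 siME2+αKG peaks 91.2% did, against 82.9% and 81.1% of their lists. Peak length depends on depth, so the coverage values describe the libraries. The part of depth in the gap between 0.660 and 0.812 was not tested.

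UBE2S had the widest gap in covered share of a gene. A 3328 bp siCtrl peak (chromosome 19, 55916450 to 55919777) ran from before the start well into the gene, whereas the siME2 peak was 1495 bp (55918006 to 55919500) and the siME2+αKG peak 1446 bp (55918054 to 55919499). Inside the gene siCtrl had 3 peaks over intron 3, with 14, 11 and 17 fragments, and siME2 had none. In siME2+αKG there were 4 inner peaks, with 15, 9, 10 and 13 fragments over introns 2 and 3. Peaks of the 3 lists, in the same order, covered 80.8%, 29.7% and 69.5% of the gene. These inner peaks are low, near the limit of listing: the lowest summits in the whole lists held 8, 7 and 8 fragments. Over exon 4 at the 3′ end the lists differed less, with 22, 15 and 21 fragments and a siME2 to siCtrl log2 ratio of −0.24 (−1.29 to 0.78). The ribosomal protein gene RPL28 (55897300 to 55914618) lies over this end on the other strand. It also covers the 17-fragment siCtrl peak and the 13-fragment siME2+αKG peak of intron 3, and ChIP does not tell the genes apart.

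At CDC20 a single 6558 bp siCtrl peak (chromosome 1, 43823628 to 43830185) covered the whole gene, a length exceeded by 0.485% of siCtrl peaks. The same stretch was broken into 5 peaks in siME2, with 55, 41, 9, 18 and 20 fragments, and into 4 in siME2+αKG, with 79, 23, 21 and 35. Peaks covered 84.8% of the gene in siME2 and 85.5% in siME2+αKG. ELOVL1 runs toward CDC20 on the other strand, and signal past the end of CDC20 may belong to either gene. UBE2C had a peak past its 3′ end in siCtrl (21 fragments) and siME2+αKG (27 fragments) and none there in siME2, which had instead a peak of 10 fragments over exon 6. Small peaks over exon 5, of 13 and 10 fragments, were likewise listed in siCtrl and siME2+αKG and not in siME2. The peaks over exons 5 and 6 are near the limit of listing, and siME2 was the shallowest library.

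FBXO5 showed the largest difference among the peaks that could be paired between lists, singled out after its values were seen. Over intron 1, about 190 bp after the canonical start, siME2 had a peak of 11 fragments (chromosome 6, 153303824 to 153304154) and siME2+αKG a peak of 38 (153303427 to 153304175). The heights were 1.05 and 2.93, and on the log2 scale the second exceeded the first by 1.48 (0.48 to 2.59), or 1.34 after division by fragment length. At the neighbouring summit upstream the same log2 ratio was −0.22 (−0.84 to 0.41), with an interval that includes 0. The siME2 peak of 11 fragments is near the limit of listing: the lowest summit in that list held 7. In siCtrl 1 peak of 2495 bp covered both summits and gave the height of the upstream one only.

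**Figure D3:**
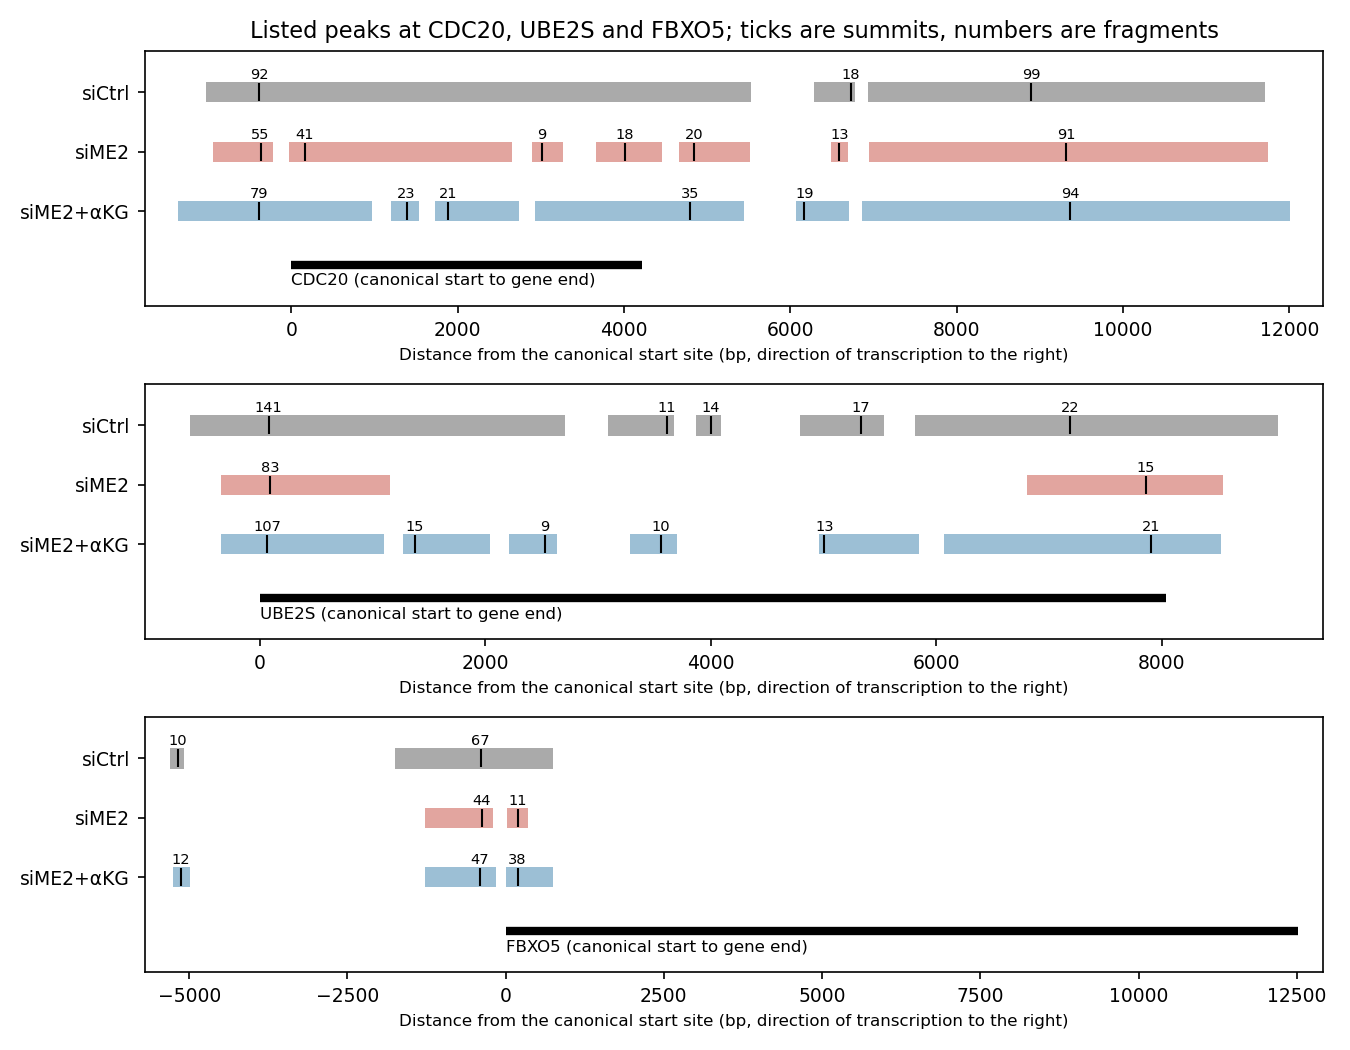
Listed peaks in the 3 libraries at CDC20, UBE2S and FBXO5 against distance from the canonical start site in bp, with transcription to the right; boxes are peaks, ticks are summits, numbers are fragments and the black bar is the gene. The siCtrl peak over CDC20 is unbroken, UBE2S has no siME2 peak between its promoter and 3′ end, and the inner FBXO5 summit has 11 fragments in siME2 and 38 in siME2+αKG.

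Among the remaining genes, FZR1 had its high peaks at the ends, and the few listed inside the gene, in introns 1, 8, 11 and 12 of the siCtrl or siME2 list, held 10 to 13 fragments. Besides the promoter peak it had a broad peak at the 3′ end, of 5907, 5273 and 7177 bp and with 37, 28 and 39 fragments. This peak lies over the convergent end of MFSD12 and the start of TEKTIP1, and in siCtrl and siME2+αKG it also holds an annotated MFSD12 start. Its summit was over exon 14 in siCtrl and siME2, with a log2 ratio of −0.09 (−0.85 to 0.66), and past the end of FZR1 in siME2+αKG. CDC27 had small peaks within 5 kb past its 3′ end, numbering 4, 2 and 1 by library, of 11 to 21 fragments. Its promoter summits had the highest local input background of the 10 genes in siME2 and siME2+αKG, at 3.99 and 4.45 fragments. CDC16, CDC23 and ANAPC1 had their high peaks at the promoter, and their other listed peaks held 9 to 13 fragments.

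Further genes of the pathway came from lists drawn up with earlier results of these data known, so their counts are descriptions. The 10 other core subunits (ANAPC2, ANAPC4, ANAPC5, ANAPC7, ANAPC10, ANAPC11, ANAPC13, ANAPC15, ANAPC16 and CDC26) had a promoter peak in all 3 lists. In siME2 over siCtrl 5 were lower and 5 were level or higher, 0 of 10 passed 1.5-fold in either direction against 3.16% and 1.49% of promoters, and the median was −0.05 (range −0.27 to 0.23). All 14 core subunits together had a median of 0.05 with 6 lower, against 56.5% of promoters. In siME2+αKG over siME2 their median was −0.08, the same as over all promoters, with 11 of 14 lower against 63.2%. For comparison, 12 genes of the SCF, another cell cycle ubiquitin ligase, and of its regulation (NEDD8, CAND1 and COPS5) were listed. In siME2 over siCtrl they had a median of −0.06 (range −0.33 to 0.11) and 0 past 1.5-fold. SKP2, an SCF subunit, was counted among the APC/C substrates instead, and stood at −0.39 (−1.14 to 0.34). No gene of the core APC/C list or of the SCF list was past the limit.

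Of 24 genes whose products the APC/C destroys, 22 had a lower height in siME2 than in siCtrl (56.5% of promoters did), with a median log2 ratio of −0.50. By at least 1.5-fold 8 were lower (33.3%, against 3.16% of all promoters), and the interval lay below 0 at 6, against 1.56%. In siME2+αKG over siME2 19 were higher while 63.2% of promoters were lower, and the median was 0.44. There 7 were at least 1.5-fold higher, against 1.4%, and the interval lay above 0 at 3, against 0.499%. Division by fragment length left 17 higher and 2 of them, BIRC5 (0.98) and GMNN (0.67), 1.5-fold higher, against 0.668% of promoters. In siME2+αKG over siCtrl 0 of 24 passed 1.5-fold, against 4.42% of promoters lower and 0.731% higher. In that comparison 18 of the 24 were lower, against 70.1% of promoters. The median was −0.08, or 0.05 relative to all promoters. Lowest in siME2 over siCtrl was BIRC5, which encodes survivin of the chromosomal passenger complex. It had 48, 19 and 51 fragments and a log2 ratio of −1.02 (−1.87 to −0.23). PLK1, a mitotic kinase gene, had 39, 16 and 32, and GMNN, which encodes the licensing inhibitor geminin, had 56, 23 and 50, each at −0.97.

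On the separase side, the median over 10 genes was −0.19, with 8 lower, against 56.5% of promoters, and 2 lower by 1.5-fold, against 3.16%. ESPL1, which encodes separase, the protease that securin inhibits, had 38, 14 and 33 fragments. On the log2 scale siME2 stood at −1.12 (−2.12 to −0.21) against siCtrl, and siME2+αKG at 0.93 (−0.02 to 1.94) against siME2. The genes of securin and separase were thus both lowest in the siME2 library. The list as a whole split evenly in siME2+αKG over siME2, 5 lower and 5 higher, while 63.2% of promoters were lower. By 1.5-fold 1 of 10 was lower there, against 4.43% of promoters, and 1 was higher (ESPL1), against 1.4%. The lower one was RAD21, a cohesin subunit, at −0.68 (−1.51 to 0.14). In siME2+αKG over siCtrl 1 of 10 was 1.5-fold lower, against 4.42% of promoters, and 0 higher, against 0.731%. That one was SMC3, another cohesin subunit, at −0.81 (−1.58 to −0.07). RAD21 and SMC3 were named after their values were seen. CDCA5, which encodes sororin, a protector of cohesin, had 53, 26 and 44 fragments and −0.71 (−1.45 to −0.01). Among 13 checkpoint and other regulators, 12 could be measured in both lists, with a median of −0.13, 8 lower, near the 56.5% of promoters, and 0 lower by 1.5-fold, against 3.16%. The exception was BUB1B, a checkpoint kinase that restrains CDC20, which had a promoter peak in siCtrl (27 fragments) and siME2+αKG (21) and none in siME2. The siME2 library was the shallowest, and 61.5% of protein-coding genes had a promoter peak in it, against 63.0% in siCtrl. The lowest summit in the siME2 list held 7 fragments. The part of depth in the missing BUB1B peak was not tested.

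**Figure D4:**
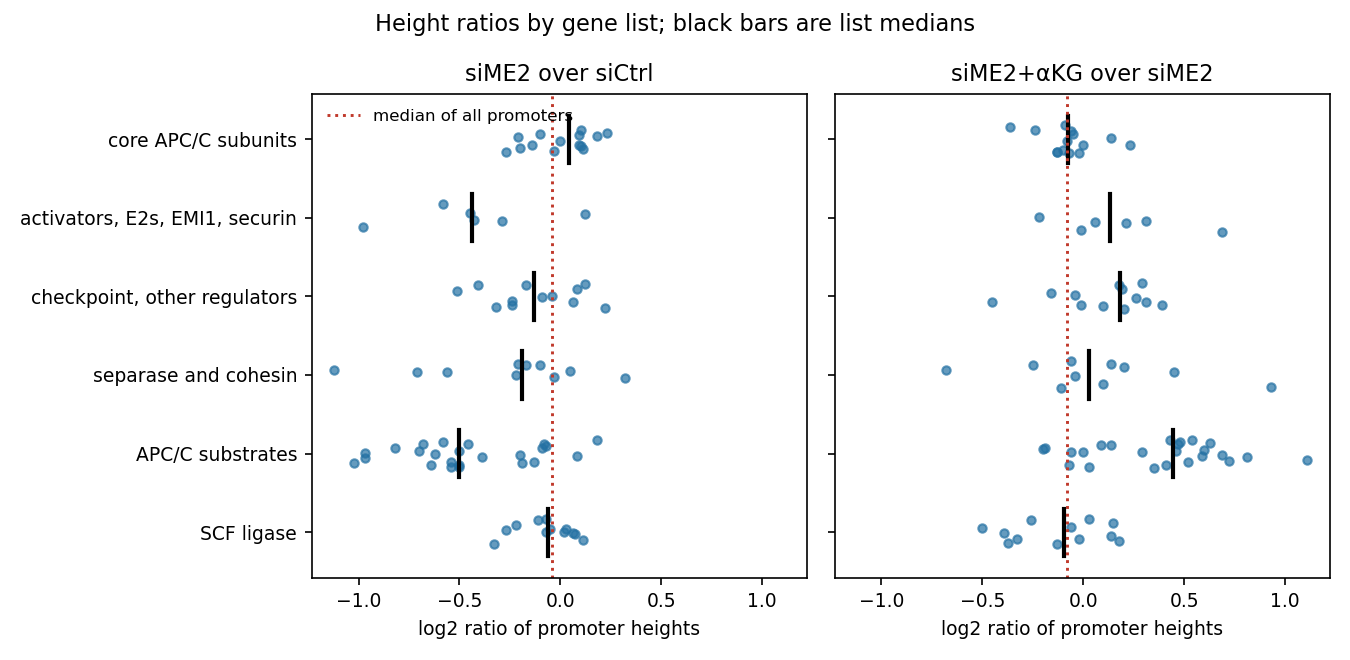
Log2 ratios of promoter height by gene list for siME2 over siCtrl (left) and siME2+αKG over siME2 (right); points are genes, black bars are list medians and the red dotted line is the median of all promoters. The substrates centre at −0.50 and 0.44, while the 14 core subunits centre at 0.05 and −0.08.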

How the data were processed

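Pol II ChIP-seq was compared between 3 conditions with 1 ChIP library each, and the inputs entered only through the peak caller. Reads were aligned to hg19 with Bowtie2 2.3.5.1, per the submitters' processing notes, which list MACS2 2.2.6; the version in the file headers is MACS 2.2.7.1, and which made the lists is not settled. Per the file headers, each ChIP library was called alone against its input (p-value limit 1e-05, at most 1 tag at a position), with the larger data set scaled down. In the deposited lists pileup is a signal, the extended ChIP fragments over the summit. The deposited fold enrichment is a ratio of pileup to local input background, and the authors' −log10 p-values and −log10 q-values belong to single peaks and were used only to rank or filter within a list. The siME2+αKG pileup had been scaled by 0.9, and dividing by the exact factor gave fragments within 0.0055 of a whole number. Local background was recovered from pileup and fold.

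Gene models came from GENCODE release 44 on GRCh37, the same build. Only peaks on chromosomes 1 to 22, X and Y entered, and overlap meant at least 1 bp. Ratios carry exact conditional binomial (Clopper-Pearson) 95% intervals from scipy 1.17.1, tested on simulated data, and heights carry exact Poisson intervals. A fixed fold of 1.5 marked a difference. The genes and lists were chosen with earlier results of these data known. All 10 genes were named, and of each further list up to 3 genes per direction past 1.5-fold in siME2 over siCtrl and any with a promoter peak in only some lists. Peaks paired 1 to 1 between lists gave the ratios away from the highest summits. The promoter sequence of UBE2C is not reported here.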

Additional observations from a re-analysis of the deposited data

How the results depend on the processing

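Each of the 30 ratios of a single gene stayed within its own counting interval under every alternative run: start-site windows of 500 bp, division by fragment length, subtraction of local background, the median of all promoters as reference, and −log10 q of at least 5. The intervals are wide, so this is a loose criterion, and the 500 bp windows and the q filter changed no value. Signs turned at ANAPC1 in siME2 over siCtrl, and at UBE2S, FZR1, CDC16 and ANAPC1 in siME2+αKG over siME2. They also turned at CDC16, CDC27 and ANAPC1 in siME2+αKG over siCtrl. The siME2 to siCtrl interval of UBE2S came to include 0 after division by fragment length. With a looser fold than 1.5, 4 genes (CDC20, PTTG1, UBE2C and UBE2S, at 0.505 to 0.744 of the siCtrl height) were lower in siME2 than in siCtrl. In siME2+αKG over siCtrl 2 were lower, UBE2S at 0.762 and FBXO5 at 0.704. With a fold of 2 these counts, and that of genes higher in siME2+αKG than in siME2, were 0. Over all promoters, 13.3% had a siME2 to siCtrl ratio below 0.797, and the same 4 genes lie below it. A siME2+αKG to siCtrl ratio below 0.796 was found at 20.3% of promoters, so 2 of 10 genes is near that background. No share of all promoters was computed at a fold of 2. Division by fragment length, an alternative chosen after seeing the data for these counts, moved the siME2+αKG over siME2 median of the 10 genes to −0.11, that of all promoters to −0.22, and left 0 genes 1.5-fold higher; longer fragments raise a summit by construction. In the wider lists, where it was also added, 2 substrates in place of 7 were then 1.5-fold higher in siME2+αKG over siME2. These were 8.33% of the list, beside 0.668% of all promoters. In the same comparison 1 of 12 SCF genes (CKS1B) in place of 0 was 1.5-fold lower (8.33%, beside 9.53% of all promoters). In siME2+αKG over siCtrl 1 of 24 substrates (CCNA2) in place of 0 was 1.5-fold lower (4.17%, beside 6.83% of all promoters). Neither share of lower genes exceeded that of all promoters. Relative to all promoters the siME2+αKG over siCtrl median was 0.01. Peak counts and overlaps of the windows stayed within 1.5 times under flanks of 1 and 10 kb, the q filter and an overlap of 50%. No paired analysis was possible because the conditions have 1 library each and share at most 1 replicate number. Depth limits these heights: at UBE2C, with 28 and 52 fragments, a ratio of 0.67 had an interval of 0.408 to 1.08.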
